A study of Caenorhabditis elegans with 12 samples.

Results

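The 7 fatty acid desaturase genes of Caenorhabditis elegans, fat-1 to fat-7, were followed through the RNA of whole worms at day 1 of adulthood. They were taken by symbol from a table of 46748 genes. All 7 were counted in every library and all 7 were among the 14511 genes that passed the filter on low counts. The 12 libraries came from 3 genotypes with 4 independent biological replicates each, fed on E. coli OP50 at the same temperature. Wild type was the strain N2. The mutant crh-1(syb385) carries an intronic CRISPR/Cas9 deletion in crh-1, the worm CREB gene, that is described as removing its circular RNAs and leaving its mRNA, and the line was outcrossed to N2. The mutant crh-1(n3315) is described as a crh-1 allele without detectable phosphorylated CRH-1 protein. Total counts were 16348586 to 22174508 in wild type, 18172086 to 21404887 in crh-1(syb385) and 20296003 to 25369267 in the crh-1(n3315)-labelled libraries. The lowest count of any member in any library was 1410, so counting error was small beside the spread between replicates. By the study methods for RNA collection, worms were moved as L4 larvae to plates with FUdR, a drug that stops progeny production, unless stated otherwise. The labels do not name the drug.

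Fatty acid desaturases place double bonds in fatty acid chains, and C. elegans makes its whole range of unsaturated fatty acids from saturated ones. The delta-9 desaturases begin the pathway. FAT-5 acts mainly on palmitic acid, while FAT-6 and FAT-7 are close paralogs that turn stearic acid into oleic acid and can stand in for each other. FAT-2, a delta-12 desaturase, then makes linoleic acid, FAT-1 converts omega-6 into omega-3 fatty acids, and FAT-3 and FAT-4, the delta-6 and delta-5 desaturases, make the long polyunsaturated fatty acids together with elongases. The stearoyl desaturases are expressed mainly in the intestine, where the nuclear receptors NHR-49 and NHR-80, the mediator subunit MDT-15 and the lipid regulator SBP-1 are known to control them. Whole worms were measured here, so fewer cells of a tissue and less RNA per cell cannot be told apart.

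In the deposited table (build WBcel235), fat-4 lay on chromosome IV from 9799429 to 9802231 and fat-3 from 9803026 to 9806121, both on the plus strand. The Ensembl annotation of that build places 796 bases and no gene between them. The genes fat-1 (IV, 13315644 to 13318783) and fat-2 (IV, 13323858 to 13326394) were also neighbours on the plus strand, separated in that annotation by 5061 bases that hold 1 pseudogene. The gene fat-6 was on the minus strand of chromosome IV from 11913690 to 11917340. The other 2 were on chromosome V, fat-5 from 17723780 to 17726825 on the plus strand and fat-7 from 7151356 to 7153146 on the minus strand. Reads had been counted over exons, and for 4 members (fat-1, fat-2, fat-3 and fat-7) the counted exonic length was within 2% of that in the Ensembl annotation of the same build.

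For fat-6 it was not. The table counted 3488 bases for fat-6 against 1166 annotated exonic bases, of which 1653 lay upstream of the annotated start and 667 in annotated introns. For fat-5 it counted 2335 bases against 1104, with 1224 bases upstream of the annotated start, and for fat-4 it counted 1943 bases against 1540, with 398 in introns. The added intervals enter a level per kb, and reads within them enter the counts behind fold changes and ratios. Such reads cannot be told apart from those in annotated exons, since only a total per gene was available. The same intervals were counted in every genotype. Some of them meet other genes. The counted intervals of fat-5 shared 26 bases with twk-42, a potassium channel gene on the opposite strand, and those of fat-6 shared 180 bases with ZK822.9 and 204 bases with ZK822.10, also on the opposite strand. These 2 genes had 0 counts and 1 count in all 12 libraries together. Whether the counting used strand, and how reads that fit both fat-6 and fat-7 were treated, is not given in the sources used here, so the split of reads between the paralogs is uncertain.

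**Figure D1:**
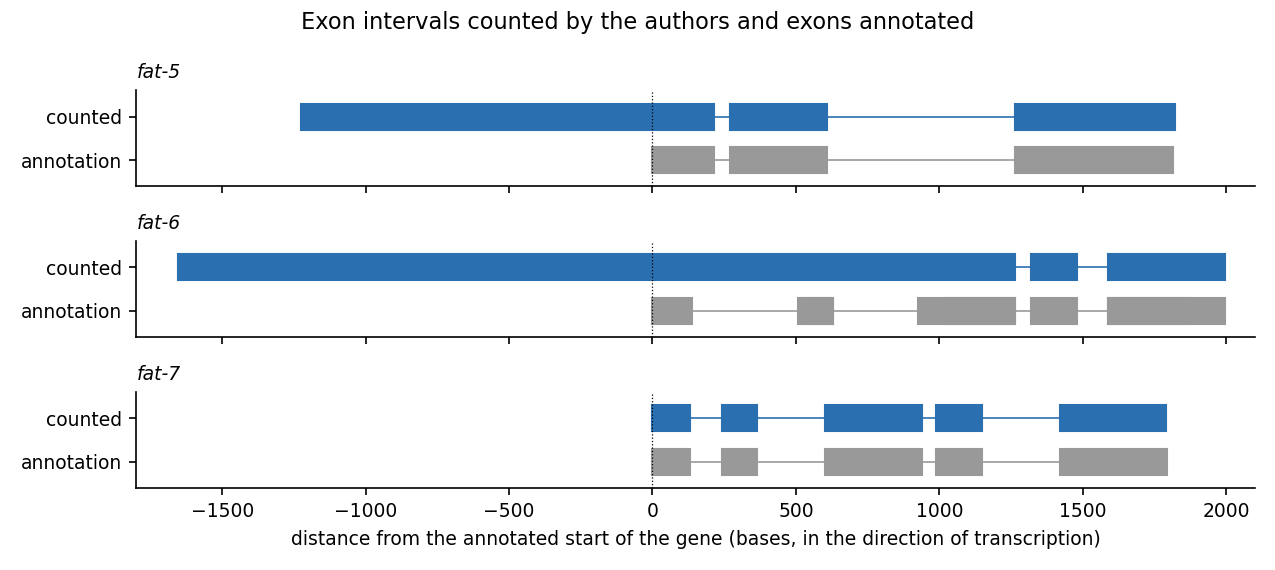
Exon intervals counted by the authors (blue) and exons of the Ensembl annotation (grey) for fat-5, fat-6 and fat-7. The x axis is the distance in bases from the annotated start in the direction of transcription. The counted intervals of fat-5 and fat-6 begin 1224 and 1653 bases before the annotated start, and those of fat-7 do not.

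The count of crh-1 gave no check of the labels. Its level in CPM (counts scaled to each library total after TMM normalization) was 37.99 to 47.4 in wild type, 42.8 to 45.9 in crh-1(syb385), whose deletion is intronic, and 47.6 to 52.8 in the crh-1(n3315)-labelled libraries, where it was not lowered. The first principal component (37.4% of the variance) separated the 3 genotypes. Wild-type libraries varied most among themselves, and replicate 1 and replicate 3 lay at the 2 ends of wild type on the second component (17.6%).

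Markers of tissues and stages moved with genotype and among the wild-type libraries. The summed CPM of 7 intestinal markers was 355 to 666 in wild type, 853 to 1153 in crh-1(syb385) and 786 to 955 in the n3315-labelled libraries. Of these markers 4 passed an adjusted p of 0.05 upward in each mutant, with 1 and 2 passing downward. The sum of 7 molting markers was 574 to 1397, 501 to 613 and 254 to 442, with 7 and 5 of the 7 lower. The sum of 9 oocyte markers was 3535 to 4828, 5806 to 6560 and 7377 to 7810, with 8 of 9 higher in each mutant. The sums of 6 hypodermal markers were 476 to 1080, 1475 to 1682 and 1362 to 1785 (1 and 2 higher, 2 and 4 lower), and those of 6 body wall muscle markers 2137 to 3819, 3728 to 5112 and 5211 to 6388 (3 and 5 higher, 0 lower). Neuron markers (7 genes) summed to 243 to 420, 302 to 345 and 360 to 420 (2 and 0 lower, 0 higher), and pharynx markers (5 genes) to 166 to 407, 299 to 459 and 356 to 508 (0 and 2 higher, 0 and 3 lower). Sperm markers (7 genes) stayed between 5.67 and 19.2 CPM and the 8 markers of zygotic embryos between 16.03 and 32.7 CPM in all libraries, and against wild type 1 sperm marker passed, upward in the n3315-labelled libraries. No marker was at 0 in all libraries. Wild-type replicate 1 had the lowest intestinal and hypodermal sums and the highest molting sum of all 12 libraries. The part of these marker differences in the desaturase results was not tested.

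The desaturases together made up 1619 to 2652 CPM in wild type, 1505 to 1641 in crh-1(syb385) and 1987 to 2237 in the n3315-labelled libraries. The highest wild-type sum was that of replicate 1, which lay above all other 11 libraries. Per kb of counted length, fat-2 had the highest mean in each genotype. It was 376 ± 88.8 CPM per kb (SD, n = 4) in wild type, 302 ± 20.3 in crh-1(syb385) and 497 ± 17.7 in the n3315-labelled libraries. Second was fat-1, with 248 ± 41.1, 264 ± 11.1 and 329 ± 12.5 CPM per kb. Its libraries overlapped those of fat-4 in wild type and those of fat-2 in crh-1(syb385). The lowest mean was that of fat-5, with 37.6 ± 10.0, 35.5 ± 3.07 and 52.0 ± 5.71 CPM per kb. In the n3315-labelled libraries fat-5 overlapped fat-6.

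The middle of the order differed between genotypes. In wild type the mean levels per kb ran fat-4, fat-3, fat-7 and fat-6, and each of these overlapped the next in its libraries. In crh-1(syb385) the order was fat-4 (150 ± 7.84 CPM per kb), fat-7 (122 ± 17.1), fat-3 (74.0 ± 6.15) and fat-6 (50.4 ± 6.83), with no overlap between neighbours. In the n3315-labelled libraries it was fat-7 (256 ± 25.4), fat-4 (120 ± 14.7), fat-3 (102 ± 8.04) and fat-6 (61.1 ± 2.29), where fat-4 and fat-3 overlapped and fat-7 stood above both. The places of fat-4, fat-5 and fat-6, and with them those of fat-1, fat-3 and fat-7, rest on the counted lengths. Per kb of annotated length the mean of fat-6 was above that of fat-7 in wild type (252 and 103 CPM per kb) and in crh-1(syb385) (151 and 122). In the n3315-labelled libraries it stayed below (183 and 255). Per kb of annotated length fat-2 kept the highest mean in each genotype, while fat-1 was second in both mutants and in rank 4 in wild type, where fat-4 (275 ± 59.6 CPM per kb), fat-6 (252 ± 98.4) and fat-1 (243 ± 40.3) overlapped in their libraries. The lowest mean was then that of fat-5 in wild type and that of fat-3 in both mutants, where fat-3 and fat-5 overlapped. Per kb of annotated length, fat-6 reached 148 to 382 CPM per kb in wild type, 137 to 181 in crh-1(syb385) and 175 to 190 in the n3315-labelled libraries, and fat-5 reached 60.5 to 100.4, 67.0 to 82.8 and 101 to 128.

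Wild-type libraries spread far more than mutant libraries. The coefficient of variation in wild type was 60.8% for fat-3, 39.1% for fat-6 and 35.3% for fat-7, and 16.6% to 26.7% for the other 4 members. In the mutants it lay between 3.55% and 14.0% for all 7. Wild-type replicate 1 was the highest wild-type library for fat-1 to fat-6 and the lowest for fat-7.

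**Figure D2:**
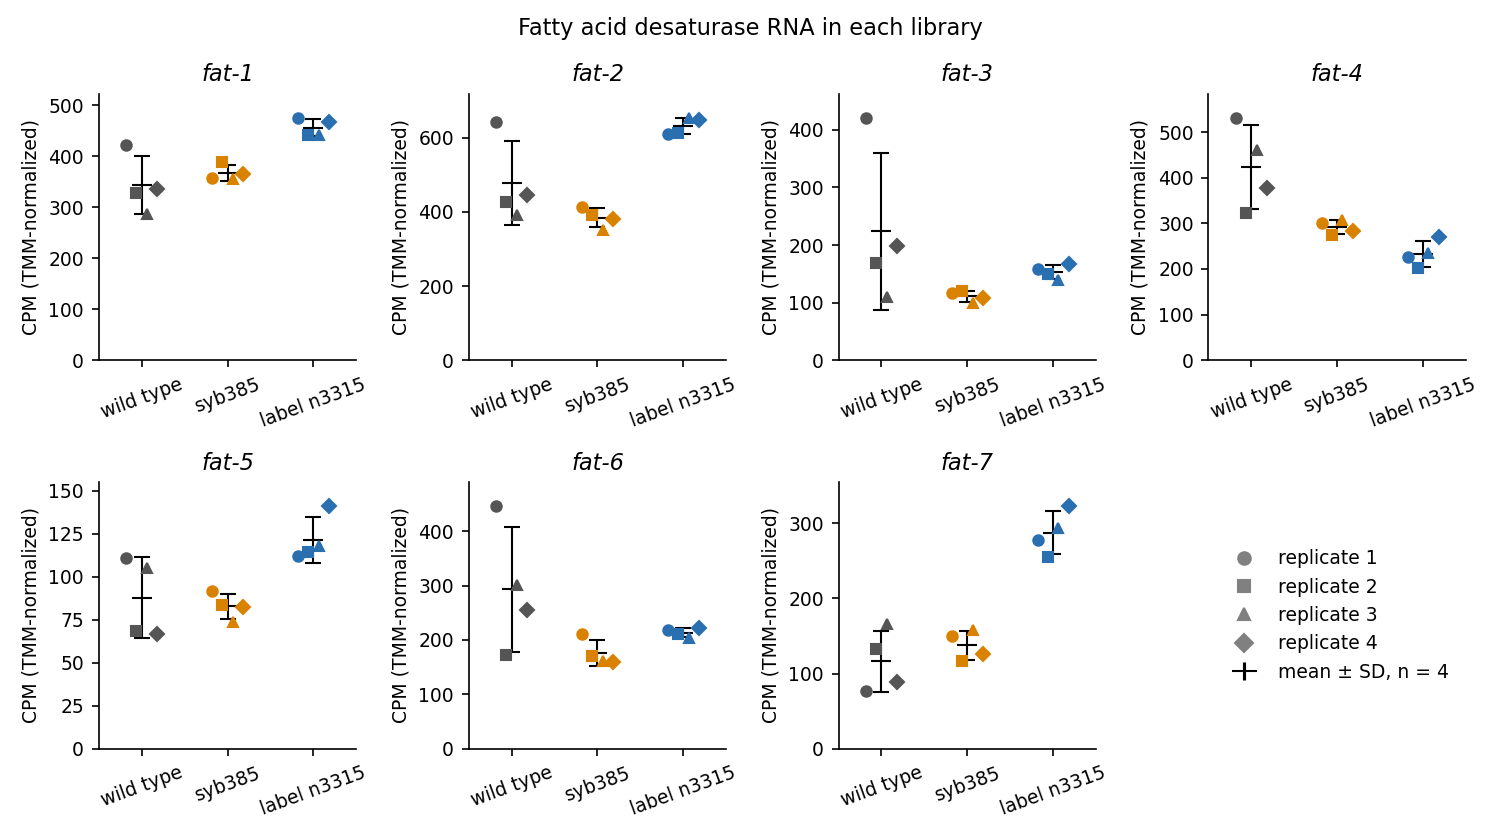
TMM-normalized CPM (y axis) of each desaturase in the 12 libraries, by genotype (x axis) and replicate (symbol), with the mean and SD of 4 libraries in black. All 4 n3315-labelled libraries lie above the other 8 for fat-7, and wild-type replicate 1 lies far above the other wild-type libraries for fat-3 (421 CPM) and fat-6 (446 CPM).

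The 3 comparisons asked how the desaturases differed when the circular RNA of crh-1 was lost, when the gene product was mutated, and between the mutants. The study methods asked for a 2-fold change with an adjusted p under 0.05, while a figure legend of the study gives a log2 fold change above 2. A change of 2-fold or more at that adjusted p is termed a 2-fold call here. The adjusted p alone is given as a second rule. In crh-1(syb385), 3 of 7 members (fat-3, fat-4 and fat-6) were lower than in wild type at an adjusted p under 0.05, against 8.88% of all tested genes, and 0 were higher, against 7.42% (edgeR quasi-likelihood test, Benjamini-Hochberg adjustment). At an unadjusted p under 0.05, 0 members were higher and 4 were lower, and DESeq2 also gave 0 higher. A 2-fold call was made for fat-3 alone, downward, against 4.48% of all genes, and was kept in 9 of 18 alternatives, and for 0 members upward, against 2.24%. The median log2 fold change of the members was -0.31, and that of all tested genes was -0.05.

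In the crh-1(n3315)-labelled libraries, 4 of 7 members (fat-1, fat-2, fat-5 and fat-7) were higher than in wild type at an adjusted p under 0.05, against 20.3% of all tested genes, and 1 (fat-4) was lower, against 21.7%. A 2-fold call was made for fat-7 alone, upward, where 4.17% of all genes had one, and for 0 members downward, against 11.2%. The median over the members was 0.40 on the log2 scale and over all tested genes -0.04. Between the mutants, 3 members (fat-2, fat-5 and fat-7) were higher in the n3315-labelled libraries at an adjusted p under 0.05, against 10.6% of all genes, and 0 were lower, against 7.42%. A 2-fold call was made for fat-7 alone, upward, against 1.49%, and for 0 members downward, against 2.39%. In that comparison fat-4 was lower at an unadjusted p under 0.05, and DESeq2 also gave 0 lower. The comparisons with wild type share their 4 wild-type libraries, and the comparison between the mutants shares a group with each of them. The comparisons came from a single fit that shares its estimate of the spread over the 12 libraries. In fits of only the 2 genotypes compared, the adjusted p between the mutants was 0.00182 for fat-1, 0.000319 for fat-3, 0.00225 for fat-4 and 0.0259 for fat-6. Against wild type it rose to 0.0572 for fat-3 and 0.0632 for fat-6 in crh-1(syb385). In the n3315-labelled libraries it rose to 0.0535 for fat-2 and 0.0735 for fat-5.

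**Figure D3:**
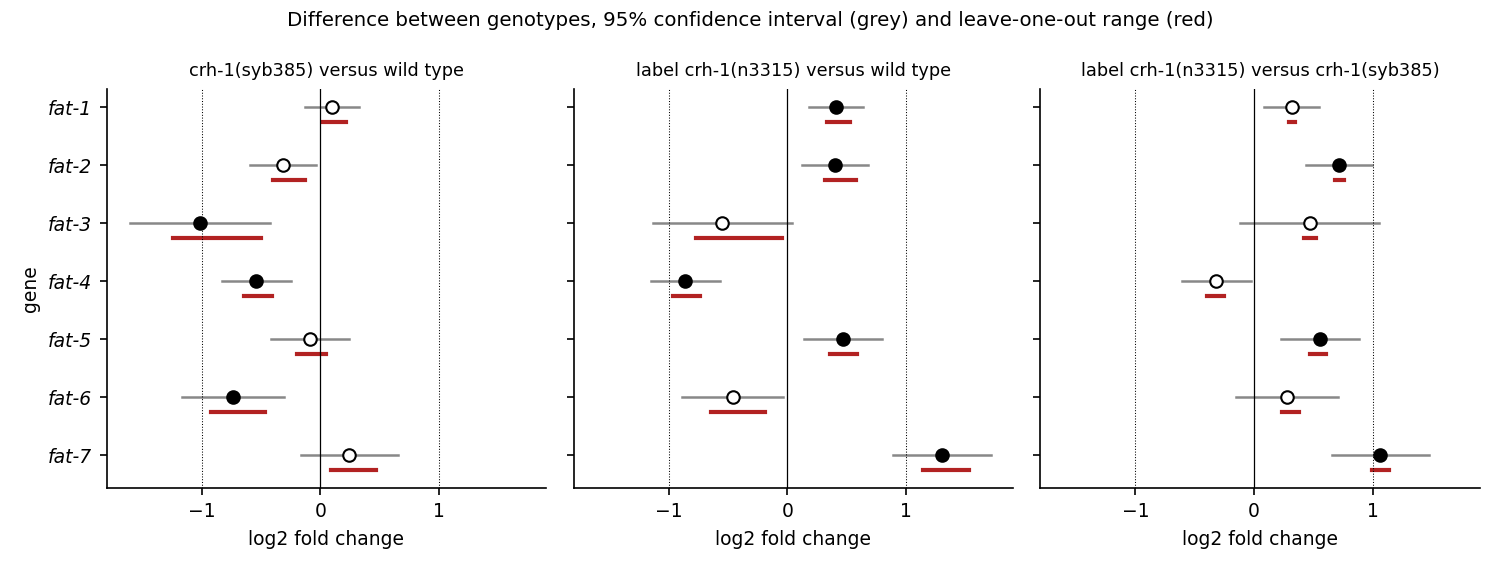
Log2 fold change (x axis) of each desaturase in the 3 comparisons, with its 95% confidence interval (grey) and the range of the value when 1 of the 12 libraries is left out (red). Filled points passed an adjusted p of 0.05 and dotted lines mark 2-fold. The fat-7 intervals lie to the right of 0 in both comparisons of the n3315-labelled libraries, and leaving out a library moves fat-3 most, from -1.24 to -0.50 in crh-1(syb385) versus wild type.

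The stearoyl desaturase fat-7 showed the largest rise of the 7. Its level was 77.0, 133, 166 and 89.0 CPM in wild-type replicates 1 to 4, 149.7, 116, 157 and 127 CPM in crh-1(syb385), and 277.5, 255, 294 and 323 CPM in the n3315-labelled libraries. All 4 n3315-labelled libraries were above all 8 others, while wild type and crh-1(syb385) overlapped. Against wild type fat-7 was 2.47-fold higher in the n3315-labelled libraries (log2 fold change 1.31, SE 0.19, adjusted p = 0.000109). It was 2.09-fold higher there than in crh-1(syb385) (log2 fold change 1.06, SE 0.19, adjusted p = 0.00275). The 2-fold call between the mutants was lost when crh-1(syb385) replicate 2 was left out (log2 fold change 0.99). Between crh-1(syb385) and wild type the log2 fold change of fat-7 was 0.24 (SE 0.19, 95% confidence interval -0.16 to 0.65, adjusted p = 0.428). Without wild-type replicate 3, the highest of its group, that difference was 0.47 with an adjusted p of 0.0301, and it was 0.09 (adjusted p = 0.784) without replicate 1, the lowest, and 0.14 (adjusted p = 0.699) without replicate 4.

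Its paralog fat-6 did not follow it. The level of fat-6 was 446, 172, 301 and 254 CPM in wild type, 211, 171, 161 and 160 CPM in crh-1(syb385), and 218, 210, 203 and 221 CPM in the n3315-labelled libraries. Wild-type replicate 2 lay among the mutant libraries and the other 3 wild-type libraries lay above all 8. In crh-1(syb385) fat-6 fell by 0.74 on the log2 scale (SE 0.20, adjusted p = 0.0207). The call rests on single libraries. Without wild-type replicate 1 the log2 fold change was -0.46 (adjusted p = 0.0641), and without crh-1(syb385) replicate 2, 3 or 4 the adjusted p was 0.0576, 0.0588 and 0.0681. In the n3315-labelled libraries the log2 fold change from wild type was -0.46 (SE 0.20, 95% confidence interval -0.89 to -0.03, adjusted p = 0.0782), with -0.64 (adjusted p = 0.00603) without wild-type replicate 2 and -0.19 (adjusted p = 0.347) without wild-type replicate 1. Between the mutants it was 0.28 (SE 0.20, adjusted p = 0.358), with an adjusted p of 0.0259 in a fit of only the 2 mutants.

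The ratio of fat-7 to fat-6 set the n3315-labelled libraries apart from the other 8, while wild type and crh-1(syb385) overlapped, and the ratio was not tested. On the log2 scale of CPM it was -2.53, -0.38, -0.86 and -1.52 in wild-type replicates 1 to 4, -0.56 to -0.04 in crh-1(syb385) and 0.28 to 0.54 in the n3315-labelled libraries. Only the n3315-labelled libraries had more counts for fat-7 than for fat-6. Per kb of counted length fat-7 made up 55.2% ± 15.5 (SD, n = 4) of both genes together in wild type, 70.7% ± 3.25 in crh-1(syb385) and 80.6% ± 1.44 in the n3315-labelled libraries, and per kb of annotated length 30.6%, 44.7% and 58.1%. When the counts of both genes were added, which leaves aside how reads were split between them, the sum differed from wild type by -0.39 on the log2 scale in crh-1(syb385) (adjusted p = 0.0887) and by 0.29 in the n3315-labelled libraries (adjusted p = 0.129). Between the mutants the summed count was higher by 0.68 in the n3315-labelled libraries (adjusted p = 0.00729).

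**Figure D4:**
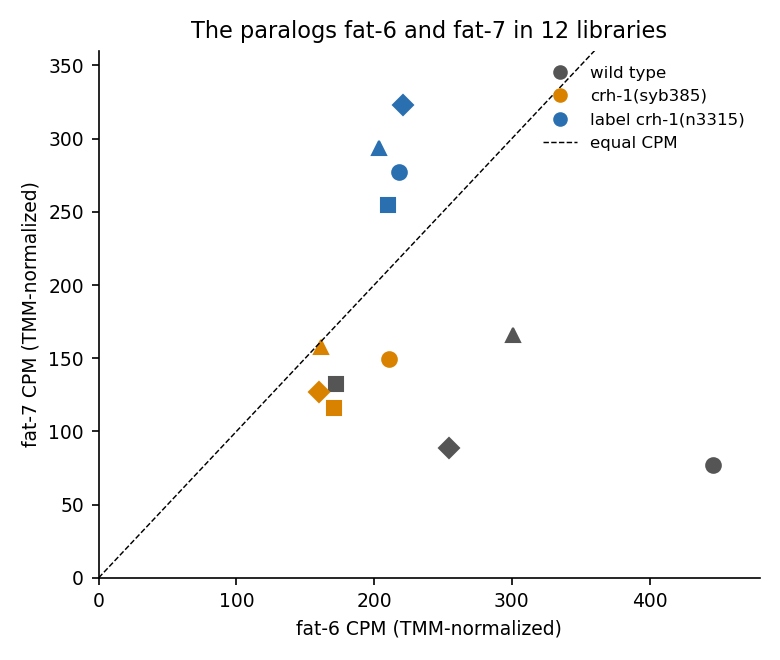
TMM-normalized CPM of fat-6 (x axis) and fat-7 (y axis) in each of the 12 libraries, coloured by genotype, with replicates 1 to 4 as circle, square, triangle and diamond. The dashed line marks equal CPM. The 4 n3315-labelled libraries lie above the line, and wild-type replicate 1 lies farthest from it, at 446 CPM of fat-6 and 77.0 CPM of fat-7.

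The palmitoyl desaturase fat-5 moved with fat-7 in the n3315-labelled libraries, by less. Its level was 111, 68.6, 105 and 66.8 CPM in wild type, 91.4, 83.5, 73.9 and 82.2 CPM in crh-1(syb385), and 112, 115, 118 and 141 CPM in the n3315-labelled libraries. The last 4 were above all others, although replicate 1 of wild type reached 111 CPM. Against wild type fat-5 was 1.38-fold higher (log2 fold change 0.47, SE 0.15, adjusted p = 0.0241), and against crh-1(syb385) 1.47-fold higher (0.55, SE 0.15, adjusted p = 0.0243). Leaving out wild-type replicate 2 or 4, or replicate 4 of the n3315-labelled libraries, took the adjusted p against wild type to 0.0748, 0.0747 and 0.0749. The adjusted p against crh-1(syb385) rose to between 0.0509 and 0.0760 when replicate 2, 3 or 4 of crh-1(syb385) or replicate 2 or 4 of the n3315-labelled libraries was left out. From wild type to crh-1(syb385) its difference was -0.09 on the log2 scale (SE 0.15, 95% confidence interval -0.41 to 0.24, adjusted p = 0.758), and its sign turned without wild-type replicate 1 or 3.

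The delta-12 desaturase fat-2 differed more clearly between the mutants than between either mutant and wild type. It was at 644, 428, 393 and 447 CPM in wild type, 413, 392.2, 351 and 380 CPM in crh-1(syb385), and 611, 614, 654 and 648 CPM in the n3315-labelled libraries. Wild-type replicate 1 lay at the level of the n3315-labelled libraries, and the other 3 wild-type libraries near crh-1(syb385). The n3315-labelled libraries were 1.64-fold above crh-1(syb385) with no overlap (log2 fold change 0.72, SE 0.13, adjusted p = 0.00283). Against wild type fat-2 was higher in the n3315-labelled libraries by 0.40 (SE 0.13, adjusted p = 0.0213), with an adjusted p of 0.0605 without wild-type replicate 2 and 0.0538 without replicate 4. In crh-1(syb385) the difference from wild type was -0.31 (SE 0.13, 95% confidence interval -0.59 to -0.04, adjusted p = 0.115), where leaving out wild-type replicate 3 gave -0.40 (adjusted p = 0.0152) and leaving out wild-type replicate 1 gave -0.13 (adjusted p = 0.374).

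The omega-3 desaturase fat-1 passed the threshold against wild type in the n3315-labelled libraries and not in crh-1(syb385). It was at 423, 327, 287 and 337 CPM in wild type, 358, 389, 356 and 365 CPM in crh-1(syb385), and 476, 442, 441 and 467 CPM in the n3315-labelled libraries. The last group lay above all 8 other libraries. Against wild type fat-1 was 1.33-fold higher there (log2 fold change 0.41, SE 0.11, adjusted p = 0.0066). Between the mutants the difference was 0.31 (SE 0.11, adjusted p = 0.0538), which passed the threshold without wild-type replicate 1 (adjusted p = 0.0138) or replicate 3 (0.00685). In a fit of only the 2 mutants its adjusted p was 0.00182. In crh-1(syb385) the difference from wild type was 0.09 (SE 0.11, 95% confidence interval -0.13 to 0.32, adjusted p = 0.604).

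The delta-5 desaturase fat-4 was the only member lower at an adjusted p under 0.05 in both mutants. The log2 fold changes of fat-3 and fat-6 were also negative in both. It was at 531, 323, 461 and 377 CPM in wild type, 300.1, 273, 307 and 284 CPM in crh-1(syb385), and 226, 202, 234 and 271 CPM in the n3315-labelled libraries. Every wild-type library was above every mutant library. It fell by 0.54 on the log2 scale in crh-1(syb385) (SE 0.14, adjusted p = 0.0141) and by 0.86 in the n3315-labelled libraries (SE 0.14, adjusted p = 0.000201), 1.45-fold and 1.81-fold lower. Both passed the adjusted p threshold whichever of the 12 libraries was left out. Between the mutants the n3315-labelled libraries lay below crh-1(syb385) without overlap, by 0.32 on the log2 scale, with a 95% confidence interval of -0.61 to -0.03 and an adjusted p of 0.119. In a fit of only the 2 mutants the adjusted p was 0.00225.

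Its neighbour on the chromosome, the delta-6 desaturase fat-3, had the widest spread of the 7 within wild type. It was at 421, 168, 109 and 198 CPM in wild type, 118, 120, 99.7 and 108 CPM in crh-1(syb385), and 159, 150, 139 and 167 CPM in the n3315-labelled libraries. Wild-type replicate 1 was 3.84 times replicate 3, and replicate 3 lay within the range of crh-1(syb385). In crh-1(syb385) fat-3 was 2.02-fold lower (log2 fold change -1.01, SE 0.28, adjusted p = 0.0206). Without wild-type replicate 1 the log2 fold change was -0.50 (adjusted p = 0.0322) and the 2-fold call was gone. The call was also lost with DESeq2 (-0.99, adjusted p = 0.0322), DESeq2 size factors (-0.99), no filter on low counts (-0.98), a replicate block (-0.88) and only the 2 genotypes fitted (-0.99, adjusted p = 0.0572). Without crh-1(syb385) replicate 1, 3 or 4 the adjusted p was 0.0513, 0.0585 and 0.0600. In the n3315-labelled libraries the difference from wild type was -0.55 (SE 0.27, 95% confidence interval -1.13 to 0.04, adjusted p = 0.124). It was -0.04 without wild-type replicate 1 and -0.77 without wild-type replicate 3 (adjusted p = 0.837 and 0.00693). Between the mutants the n3315-labelled libraries lay above crh-1(syb385) without overlap, by 0.47 (SE 0.27, adjusted p = 0.255), and without wild-type replicate 1, whose spread enters the shared estimate, the adjusted p was 0.0248. In a fit of only the 2 mutants it was 0.000319.

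Without regard to a test, the n3315-labelled libraries lay wholly above wild type for 3 of 7 members (fat-1, fat-5 and fat-7), against 20.5% of all tested genes, and wholly below for 1 (fat-4), against 18.2%. In crh-1(syb385) the counts were 0 above, against 9.79%, and 1 below (fat-4), against 8.95%. Between the mutants 5 members lay wholly above in the n3315-labelled libraries and 1 below, against 19.2% and 14.3%.

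The elongases extend fatty acid chains between the desaturation steps. Of 9 elo genes 8 were tested, and elo-7 had too few counts. The palmitate elongase gene elo-2 rose in both mutants, from 35.0 to 82.8 CPM in wild type to 138 to 155 CPM in crh-1(syb385) (log2 fold change 1.25, SE 0.18, adjusted p = 0.000387) and 186 to 222 CPM in the n3315-labelled libraries (1.70, SE 0.19, adjusted p = 8.61e-06). It was called at 2-fold in both comparisons whichever library was left out. The gene elo-3 rose by 0.53 and 0.55 (adjusted p = 0.00177 and 0.000389), and elo-1, which elongates polyunsaturated fatty acids between the FAT-3 and FAT-4 steps, rose by 0.52 in the n3315-labelled libraries (adjusted p = 0.0267), with an adjusted p of 0.0784, 0.0557 and 0.0728 without wild-type replicate 4 or replicate 1 or 2 of that group. In those libraries elo-4, at 1.74 to 2.15 CPM, had a log2 fold change of -1.05 (adjusted p = 0.00355), which became -0.95 without wild-type replicate 1 and -0.998 without replicate 4 of that group. For elo-5, elo-6, elo-8 and elo-9 no comparison passed the threshold, with log2 fold changes of -0.32 to 0.80. Against wild type 2 of the 8 were higher and 0 lower in crh-1(syb385), where 7.42% and 8.88% of all genes were. In the n3315-labelled libraries 3 were higher and 1 lower, against 20.3% and 21.7%. Between the mutants 0 elongases passed in either direction in edgeR's test, against 10.6% of all genes higher and 7.42% lower. At an unadjusted p under 0.05, 2 were higher in the n3315-labelled libraries, and DESeq2 gave 1 higher and 0 lower. The median of the 8 was 0.42 and 0.40 against wild type.

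Other enzymes of the elongation cycle and electron supply changed by less than 2-fold. Of 5 genes of fatty acid synthesis and the elongation cycle, 2 rose in crh-1(syb385) and 3 in the n3315-labelled libraries, where 7.42% and 20.3% of all tested genes did. In each mutant 0 fell, against 8.88% and 21.7%. The genes that rose are given next. They were art-1, the enoyl reductase gene (0.62 and 0.79, adjusted p = 0.00128 and 5.59e-05), hpo-8, the dehydratase gene (0.30 and 0.28, adjusted p = 0.0399 and 0.0257), and in the n3315-labelled libraries let-767, a ketoacyl reductase gene (0.55, adjusted p = 0.00217). The genes of acetyl-CoA carboxylase (pod-2) and fatty acid synthase (fasn-1) had log2 fold changes of -0.25 to 0.20 against wild type and did not pass. Among 4 genes of cytochrome b5 and its reductases, which carry electrons to desaturases, hpo-19 rose by 0.33 and 0.55 (adjusted p = 0.0177 and 0.000204) and cytb-5.2 fell by 0.74 in the n3315-labelled libraries (adjusted p = 0.00049). That made 1 of 4 higher in each mutant, against 7.42% and 20.3% of all genes, and 0 and 1 lower, against 8.88% and 21.7%. Leaving out each of the 12 libraries in turn, hpo-8 passed 4 and 8 times and hpo-19 passed 9 times in crh-1(syb385), while the other calls of these lists held. The genes with 1 or a few calls per list, and the other pathway genes described below that did not reach 2-fold, were named after their values were seen.

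Of 12 regulators of desaturase transcription and membrane composition, 0 passed in crh-1(syb385) in either direction in edgeR's test, where 7.42% of all genes rose and 8.88% fell. In the n3315-labelled libraries 5 rose, none by 2-fold, and 0 fell, against 21.7% of all genes that fell. In crh-1(syb385) 2 were lower at an unadjusted p under 0.05, and DESeq2 gave 1 lower and 0 higher. The 5 were scp-1, the gene of the SREBP-activating protein homologue (0.59, adjusted p = 0.00341), the nuclear receptor genes nhr-66 (0.44, adjusted p = 0.0123) and nhr-13 (0.38, adjusted p = 0.0474), paqr-2 of the membrane fluidity sensor (0.37, adjusted p = 0.0172) and acdh-11 (0.33, adjusted p = 0.025). The background for a rise there was 20.3% of genes. The genes nhr-49, nhr-80, mdt-15 and sbp-1 passed in neither comparison, with log2 fold changes of 0.24, 0.44, -0.09 and -0.42 in the n3315-labelled libraries. Between the mutants nhr-66 and scp-1 were higher in the n3315-labelled libraries (0.58 and 0.67, adjusted p = 0.00779 and 0.0061). Leaving out each of the 12 libraries in turn, nhr-13 passed 3 times, acdh-11 7 times and paqr-2 11 times in the comparison with wild type, and without wild-type replicate 1 nhr-13 and acdh-11 had an adjusted p of 0.105 and 0.052.

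Enzymes of phosphatidylcholine synthesis place the fatty acids made by desaturases in membrane lipid. Of 9 tested of 10, 6 rose and 1 fell in crh-1(syb385), where 7.42% and 8.88% of all genes did, and 7 rose and 0 fell in the n3315-labelled libraries, where 20.3% and 21.7% did, with medians of 0.51 and 0.78. The choline kinase gene ckb-2 was at 8.43 to 15.03 CPM in wild type, 15.8 to 20.4 in crh-1(syb385) and 51.5 to 61.4 in the n3315-labelled libraries. The latter were above wild type by 2.16 (SE 0.17, adjusted p = 3.85e-07) and above crh-1(syb385) by 1.65 (SE 0.16, adjusted p = 3.31e-05) on the log2 scale. The phosphotransferase gene cept-1 rose by 1.05 and 1.13 (adjusted p = 0.00937 and 0.00207), under 2-fold without wild-type replicate 1 (0.84 and 0.90) and, in crh-1(syb385), without replicate 4 (0.97), and the methyltransferase gene pmt-1 fell by 0.52 in crh-1(syb385) with an adjusted p of 0.0275, or by 0.30 with an adjusted p of 0.0631 when wild-type replicate 1 was left out. Leaving out each of the 12 libraries in turn, pmt-1 passed 6 times, and in crh-1(syb385) the rises of ckb-2 and cept-2 passed 2 and 11 times and in the n3315-labelled libraries that of ckb-4 passed 7 times.

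Of 11 genes of triglyceride synthesis and storage, 1 rose and 0 fell in crh-1(syb385) by the test of edgeR, against 7.42% and 8.88% of all genes, while 4 rose and 1 fell in the n3315-labelled libraries, against 20.3% and 21.7%. In crh-1(syb385) 2 were higher and 1 was lower at an unadjusted p under 0.05. The acyltransferase gene dgat-2, at 3.82 to 7.88 CPM in wild type, rose in both mutants by 1.33 and 1.13 (adjusted p = 0.000788 and 0.00074). These values became 1.15 and 0.95 when wild-type replicate 1 was left out. In the n3315-labelled libraries the glycerolipid genes acl-6 and lpin-1 rose by 0.72 and 0.58, the perilipin gene plin-1 rose by 0.30 and acs-22 fell by 0.48 (adjusted p = 0.00011, 0.00056, 0.0293 and 0.00562). The rise of plin-1 passed in 10 of the 12 fits that left out a library.

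The fasting-response genes act in lipid breakdown, fatty acid oxidation and the glyoxylate cycle. Of 5 genes 3 fell in crh-1(syb385) and 4 in the n3315-labelled libraries, where 8.88% and 21.7% of all genes did, and 3 of them fell by 2-fold in each, where 4.48% and 11.2% did. The carnitine palmitoyltransferase gene cpt-3 was at 8.93 to 16.1 CPM in wild type, 1.36 to 3.93 in crh-1(syb385) and 3.83 to 4.98 in the n3315-labelled libraries, with log2 fold changes of -2.05 and -1.62 (adjusted p = 0.000216 and 0.000308). The acyl-CoA synthetase gene acs-2, a known NHR-49 target, ranged from 103 to 1157 CPM within wild type and overlapped both mutants. Its log2 fold changes were -1.52 and -2.28 (adjusted p = 0.0413 and 0.00183), and without wild-type replicate 1 they were -0.76 (adjusted p = 0.196) and -1.53 (adjusted p = 0.00388). In crh-1(syb385) acs-2 passed in 3 of the 12 fits that left out a library, and hacd-1 in 9. The dehydrogenase gene hacd-1 had log2 fold changes of -1.13 and -1.78 (adjusted p = 0.0218 and 0.000484), and of -0.51 and -1.16 without wild-type replicate 1. The isocitrate lyase gene icl-1 fell by 0.90 in the n3315-labelled libraries (adjusted p = 0.013). Without wild-type replicate 1 the genes lower by 2-fold numbered 1 in crh-1(syb385) and 3 in the n3315-labelled libraries.

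**Figure D5:**
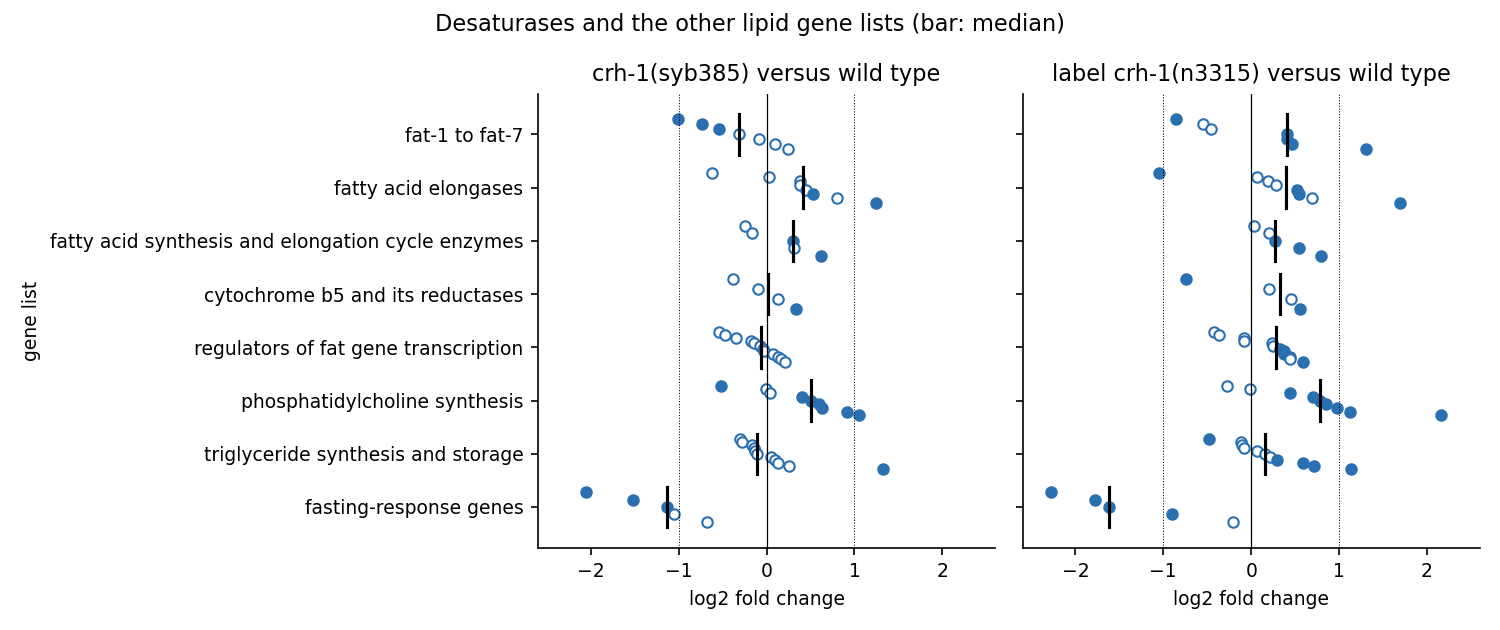
Log2 fold change against wild type (x axis) of each tested gene in the desaturase set and 7 further lipid gene lists (y axis), for crh-1(syb385) and the n3315-labelled libraries. Filled points passed an adjusted p of 0.05, bars are list medians and dotted lines mark 2-fold. The desaturases spread to both sides of 0, the medians of phosphatidylcholine synthesis lie at 0.51 and 0.78, and all fasting-response genes lie below 0.

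The genes whose profile over the 12 libraries was most like each member were found by the root mean square difference of centred log2 CPM, among 7831 genes with a mean of at least 10 CPM. For fat-1 they were Y53H1B.2 (0.09) and otub-2 (0.09), for fat-2 F12A10.8 and C09E7.7 (both 0.13), and for fat-4 C39H7.4 and C16A3.6 (both 0.13). For fat-3 they were fkh-9 (0.22) and ZK930.2 (0.23), for fat-6 C25G4.2 (0.22) and acl-12 (0.23), and for fat-5 the cytochrome b5 gene cytb-5.1 and pdr-1 (both 0.20). The gene fat-7 had the largest differences from its neighbours, nas-11 (0.27) and cdr-4 (0.29), and also the largest SD of its own over the libraries (0.65). The differences were not scaled by that SD, which was 0.22, 0.34, 0.54, 0.39, 0.33 and 0.41 for fat-1 to fat-6. No member was among the 2 nearest of another. The best place of one member in the list of another was that of fat-2, in 10th place for fat-5 (0.22). The smallest difference between members was that of fat-1 and fat-2 (0.21), and the paralogs fat-6 and fat-7 were not each other's nearest member. All profiles share the same libraries and their depth.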

How the data were processed

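The authors made poly(A)-selected libraries, aligned the reads to WBcel235 with STAR (2.7.5a) and counted them over exons per gene with featureCounts (1.5.0). Raw counts were deposited, one whole number per gene and library, with no normalization or pooling, together with exonic lengths. The annotation release, strand setting and treatment of reads that map to several genes are not given in the sources used here. Samples and columns were matched by genotype and replicate number. A symbol was found for 43693 of 46748 genes.

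Here, in R 4.3.3, genes were filtered with filterByExpr of edgeR 4.0.16 (minimum count 10, minimum total 15), TMM-normalized and fitted by the quasi-likelihood test with genotype as a single factor over all 12 libraries, with a prior count of 0.125 for fold changes and Benjamini-Hochberg adjustment over 14511 genes. Profiles used log2 CPM with a prior count of 2. The test was run on simulated counts with the same spread per gene in all genotypes, so that check does not cover the wider spread of wild type. The alternatives were DESeq2 1.42.0, other scalings and filters, separate fits of 2 genotypes, a block by replicate number, a fold threshold inside the test, summed paralog counts and leaving out each library. Annotated lengths, and lists without wild-type replicate 1 or 3, were added after seeing the data. The genes to be named by rule were the 7 members, the elongases, the pathway genes with a 2-fold call and the 2 nearest profiles of each member. Other pathway genes were named after their values were seen. The members, lists and rules were chosen with earlier results of these data known. The marker lists covered intestine, hypodermis, oocyte, zygotic embryo, sperm, neuron, body wall muscle, pharynx and molting.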

Additional observations from a re-analysis of the deposited data

How the results depend on the processing

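The rise of fat-7 in the n3315-labelled libraries over wild type (1.14 to 1.53 on the log2 scale) kept its 2-fold call in 18 of 18 alternatives to the scaling, filter, tool, sample choice and libraries, and the fall of fat-4 kept an adjusted p under 0.05 in 18 of 18 in both mutants. These 18 leave out the fold threshold inside the test, where the adjusted p of that rise was 0.243. They also leave out the summed paralog counts, where the difference was 0.29 (adjusted p = 0.129). Of the 18 alternatives, 12 leave out 1 library each. Fits without a library of the third genotype keep both compared groups whole, so they are a weaker check of that comparison. The 2-fold call of fat-3 in crh-1(syb385) was the least stable, and the number of members with such a call downward became 0 with DESeq2 size factors, with DESeq2, with no filter on low counts and with only the 2 genotypes compared, where the number lower at the adjusted p became 1. Leaving out 1 library gave 0 to 1 such calls, 1 to 4 members lower and 0 to 1 higher at the adjusted p. With a test of 2-fold or more in place of a fold threshold, 0 members were called in each of the 3 comparisons. In the n3315-labelled libraries against wild type, 2 members were higher when only the 2 genotypes were fitted, and 2 were lower with upper-quartile factors and with no filter. Leaving out 1 library gave 2 to 4 higher and 1 to 2 lower. Upper-quartile factors moved the median of all genes there to -0.13. Between the mutants, fitting only those 2 genotypes gave 6 members higher and 1 lower, upper-quartile factors gave 0 at 2-fold, and leaving out 1 library gave 2 to 5 higher at the adjusted p and 0 to 1 at 2-fold. The cause of these shifts was not tested, except that fits of 2 genotypes hold fewer libraries and estimate their own spread.

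The difference of fat-5 between crh-1(syb385) and wild type turned to 0.045 without wild-type replicate 1 and 0.01 without replicate 3, in a range of -0.20 to 0.045 over libraries left out. With the counts of fat-6 and fat-7 added, the value that stands for fat-7 in crh-1(syb385) turned to -0.39 and that for fat-6 in the n3315-labelled libraries to 0.29. With annotated lengths the share of fat-7 became 30.6%, 44.7% and 58.1% in wild type, crh-1(syb385) and the n3315-labelled libraries. The main fit did not pair samples by replicate number. Same-numbered libraries of 2 genotypes correlated by -0.08 to 0.12 in their deviations from the group means. Whether such samples were grown or processed together is not given in the sources used here. With a replicate block, 0 members in crh-1(syb385) kept a 2-fold call downward, no other count of members moved by over 1.5 times, and the 2-fold calls over all genes went from 975 to 858, from 2230 to 2151 and from 563 to 502.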
